A study of Mus musculus with 6 samples.

Results

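A set of 37 genes of the synaptic vesicle cycle, chosen by gene symbol and grouped by family, was examined in CTIP2:GFP+ and CTIP2:GFP- cells derived from mouse embryonic stem cells. Of these 37 genes, 36 were measured by a probe set that names 1 gene, each by exactly 1 such probe set, among 19938 genes measured in all. Vamp2, the vesicle SNARE of synaptic vesicles, was represented only by a probe set annotated to several genes and has no value here. The genes comprised 12 synaptotagmins, 4 SNARE proteins, 5 complexins and SNARE disassembly factors, 3 synapsins, 7 vesicle membrane proteins, 5 Rab3 and C2-domain effectors and 1 endocytosis adaptor.

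Both fractions came from 1 knock-in mouse embryonic stem cell line of 129SVEV origin, in which GFP follows the coding region of Ctip2 (Bcl11b, a transcription factor of deep-layer cortical neurons) and a Neo cassette was retained. The cells were differentiated toward cortex as floating aggregates by the SFEBq method, with WNT and TGF/Activin/Nodal signalling inhibited, and sorted by GFP fluorescence on day 11, day 12 and day 13. RNA of the CTIP2:GFP+ and the CTIP2:GFP- fraction of each day was hybridised to 1 GeneChip Mouse Gene ST array, so that the 3 arrays of a fraction stand for 3 successive days, with no day repeated. The GFP- fraction was defined only by the absence of reporter signal, and the sources used here do not say which cells it held. A p-value therefore reflects how much the difference varied from day to day. The test also draws the spread of each gene toward that of all genes, so a p-value does not rest on that gene alone. Precision is limited by having 6 arrays.

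Neurons store transmitter in synaptic vesicles, which dock at the presynaptic membrane and fuse when calcium enters. Fusion is driven by SNARE proteins, with syntaxin and SNAP-25 on the plasma membrane and VAMP on the vesicle, while complexins hold the assembled complex and synaptotagmins act as its calcium sensors. The ATPase NSF and its SNAP adaptors then take the complex apart. Synapsins tether the reserve of vesicles, Rab3 proteins and their effectors bring vesicles to release sites, and adaptors such as AP180 recover the membrane by endocytosis. Several of these proteins are made by young neurons before synapses form, and other family members serve secretion in all cells.

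Of the 36 measured genes, 4 passed the test as higher in GFP+ cells, namely Syt1, Syt5, Sv2a and Rph3a, against a background of 0.797% of all genes called higher (adjusted p under 0.05, limma with day as a block). None of the 36 was called lower, where 0.567% of all genes were. At an unadjusted p under 0.05 from limma, 2 of the 36 were lower, as were 1188 of all 19938 genes. A mean difference over 2-fold higher in GFP+ cells was found for 11 of the 36 genes, against 1.97% of all genes, and none was over 2-fold lower, against 1.02%. The median difference, GFP+ minus GFP- on the log2 scale and averaged over 3 days, was 0.54 for the 36 genes and -0.05 for all genes. These counts had limits. The genes were listed with earlier results of these data known, so the comparison with all genes is not independent of the data. Without day 13, 0 of the 36 passed the adjusted test, with an adjusted p from limma of 0.052 to 0.063 for the 4 genes. In that fit 24 of the 36 had an unadjusted p under 0.05, as had 3064 of all 19938 genes. With the median of each array set equal 0 passed (lowest adjusted p from limma 0.098). There 23 had an unadjusted p under 0.05, as had 2615 of all genes. That centring shifts each array as a whole, so it moves the mean difference of every gene by the same amount. The centred differences, 2.39 for Syt1, 1.91 for Syt5, 1.73 for Sv2a and 1.52 for Rph3a, thus say nothing about these genes in particular. The median difference of all genes moved from -0.05 to 0.002. After centring, 12 of the 36 genes were over 2-fold higher, against 474 of all genes. Without the day 13 GFP- array, 7 of the 36 genes were over 2-fold higher, against 210 of all genes.

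**Figure D1:**
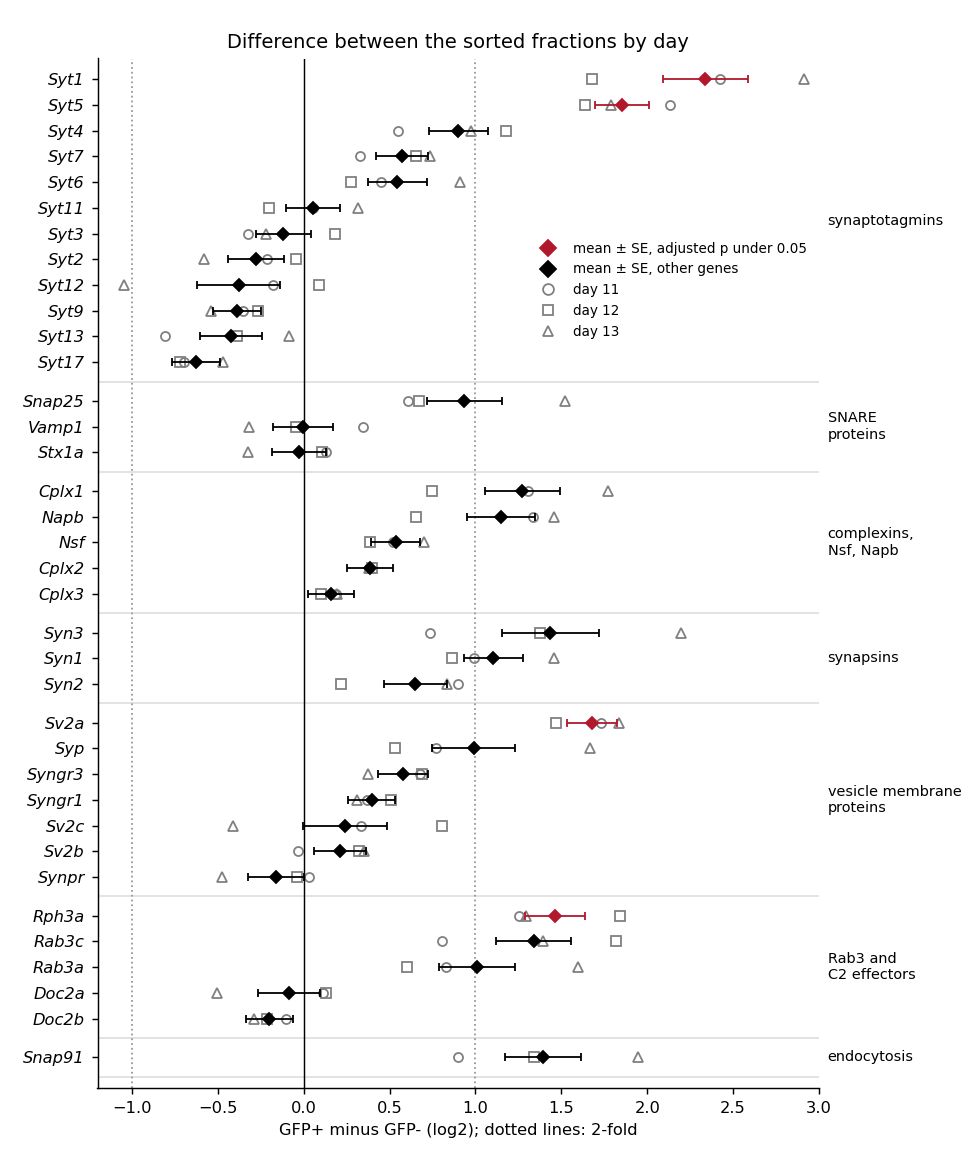
Difference between the fractions, GFP+ minus GFP- on the log2 scale, for the 36 measured genes by family. Open symbols are single days, diamonds are means over 3 days with the standard error of the fit, and red marks the 4 genes with an adjusted p under 0.05. Syt1 lies farthest to the right at 2.34 and Syt17 farthest to the left at -0.63.

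The arrays themselves differed. Signals were least spread on the day 13 GFP- array, with a standard deviation of 1.11 against 1.29 to 1.48 on the other 5 arrays, and on that day 1831 genes (9.18%) exceeded 2-fold in favour of GFP+ cells. The same count was 368 (1.85%) on day 11 and 295 (1.48%) on day 12. Among the 36 genes, 13 were over 2-fold higher on day 13, 6 on day 11 and 8 on day 12, and 4 were so only on day 13. In the other direction, 1 of the 36 was over 2-fold lower on day 13 (Syt12) and 0 on the other days, while 457 of all genes were over 2-fold lower on day 13. The day 13 GFP- value was the lowest of the 3 GFP- values for 20 of the 36 genes and the highest for 13. Over all 19938 genes these counts were 7523 and 8564. The split went with signal level. Above the median of all probe sets, that value was the lowest for 20 of 28 vesicle genes and 6793 of 10789 genes of all. Below it, that value was the highest for 7 of 8 vesicle genes and 6479 of 9149 genes of all. The 4 called genes exceeded 2-fold on each of the 3 days, as were 0.642% of all genes. The part of the day 13 GFP- array in the results was not tested beyond leaving it out.

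The cell types of the fractions were checked with marker lists. Of 10 neuronal markers, 1 was called higher in GFP+ cells (Map2, a dendritic microtubule protein, 0.92, adjusted p from limma = 0.047), 5 were over 2-fold higher, and the median difference was 1.03. The list was not uniform. The differences of these 10 markers ran from -0.25, lower in GFP+ cells, to 1.70, and 7 of them were higher in GFP+ cells on every day. Their summed linear signal was 7098 to 9216 on the GFP+ arrays, against 2406 to 4938 on the GFP- arrays. Of 10 radial glial and progenitor markers, 6 were called lower (Nes, Vim, Hes5, Slc1a3, Notch1 and Sox9), with Slc1a3, the glial glutamate transporter, at -2.72. Their summed linear signal was 4594 to 9382 on the GFP+ arrays, against 10691 to 14203 on the GFP- arrays. GFP+ cells carried more neuronal and less progenitor signal, both fractions carried some of each, and fewer cells of a type and less RNA per cell cannot be told apart in such pooled RNA. None of the markers of pluripotent cells (8), mesenchyme and endothelium (8), epithelium and endoderm (7) or astrocytes and the oligodendrocyte lineage (8) was called by the same fit. At an unadjusted p under 0.05, 1 of these was higher and 4 were lower, against 1910 and 1188 of all 19938 genes. The last list nonetheless ran from -1.94 for Aldh1l1, an astrocyte enzyme (adjusted p from limma = 0.062), to 1.26 for Pdgfra, a receptor of oligodendrocyte precursors (adjusted p = 0.057). How far the neuronal share of each fraction accounts for the differences described next was not tested.

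Promoter sequence is given for Syt1, Sv2a and Rph3a, which passed the test, and for Syn1 and Sv2b, which did not, to put letters beside the values that follow. The RefSeq table of GRCm38.p6 gave 250 bases before to 50 bases after the start for 25 of the 37 genes, as 37 promoters with alternative starts. Both strands were searched for the core of RE1, the element bound by the neuronal repressor REST (CAGCACC and GGACAG, 2 bases apart), for CRE (TGACGTCA), for the TATA box (TATAAA) and for the GC box (GGGCGG). The exact RE1 core was in 0 of the 37 promoters and in 0.0365% of 32851 promoters in the table. With 1 mismatch allowed at its 13 fixed letters, a choice made after the Syn1 promoter had been read, it was in 2 of the 37 promoters, of Syn1 and of Rph3a, and in 0.186% of all promoters. CRE was in 1 of the 37 promoters (1.79% of all), the TATA box in 2 (13.6% of all, both of Sv2b) and the GC box in 22 (35.7% of all). Capitals mark the RE1-like, CRE, TATA box and GC box matches on either strand, and a match is a description of the letters only.
Syn1, chrX:20920869-20921168, minus strand, 68.3% GC: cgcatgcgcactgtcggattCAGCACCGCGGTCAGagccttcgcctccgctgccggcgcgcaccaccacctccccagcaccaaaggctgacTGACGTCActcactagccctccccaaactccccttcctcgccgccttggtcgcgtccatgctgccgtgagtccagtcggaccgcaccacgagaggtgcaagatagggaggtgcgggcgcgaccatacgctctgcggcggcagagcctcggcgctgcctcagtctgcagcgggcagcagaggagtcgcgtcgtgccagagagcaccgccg
Rph3a, chr5:121009489-121009788, minus strand, 63.0% GC: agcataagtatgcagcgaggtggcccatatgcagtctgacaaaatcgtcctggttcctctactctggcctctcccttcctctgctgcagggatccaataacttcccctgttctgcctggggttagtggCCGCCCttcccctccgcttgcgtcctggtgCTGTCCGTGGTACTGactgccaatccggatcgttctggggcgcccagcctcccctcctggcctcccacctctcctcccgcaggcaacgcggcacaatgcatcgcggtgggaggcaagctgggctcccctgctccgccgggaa
Sv2a, chr3:96180977-96181276, plus strand, 68.0% GC: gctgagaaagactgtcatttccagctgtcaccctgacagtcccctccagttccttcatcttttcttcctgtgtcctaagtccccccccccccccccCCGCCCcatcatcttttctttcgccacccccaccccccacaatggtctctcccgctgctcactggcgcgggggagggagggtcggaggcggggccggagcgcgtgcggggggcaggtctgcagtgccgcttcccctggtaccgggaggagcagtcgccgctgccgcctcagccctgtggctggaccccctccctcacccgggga
Sv2b, chr7:75309213-75309512, minus strand, 51.3% GC: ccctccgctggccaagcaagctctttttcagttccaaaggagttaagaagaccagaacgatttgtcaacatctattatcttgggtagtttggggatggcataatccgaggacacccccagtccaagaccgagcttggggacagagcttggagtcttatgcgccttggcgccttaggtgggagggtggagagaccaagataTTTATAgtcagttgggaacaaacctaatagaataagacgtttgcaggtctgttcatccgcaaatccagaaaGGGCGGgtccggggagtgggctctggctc
Syt1, chr10:109010926-109011225, minus strand, 56.7% GC: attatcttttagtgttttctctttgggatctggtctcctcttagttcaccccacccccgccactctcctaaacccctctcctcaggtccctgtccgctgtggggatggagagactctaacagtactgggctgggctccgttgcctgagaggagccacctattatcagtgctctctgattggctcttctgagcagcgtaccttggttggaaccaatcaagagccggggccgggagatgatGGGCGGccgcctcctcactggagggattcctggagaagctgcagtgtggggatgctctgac

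In the Syn1 promoter the RE1-like run is the first stretch of capitals and starts 230 bases before the transcription start. It differs from the core by A12T, counted from 1 at the 5' end of the core with the letter of the core first. The other capitals in Syn1 are a CRE that starts 159 bases before the transcription start. In the printed Rph3a promoter the RE1-like run lies on the opposite strand, 92 bases before the transcription start at its first printed base. It differs from the core by C4T. The printed Sv2a, Syt1 and Rph3a promoters each hold 1 GC box. The printed Sv2b promoter holds a TATA box, on the opposite strand, and a GC box. Rph3a, Syt1 and Sv2b also have promoters at alternative starts, which are not printed. Those of Rph3a and Syt1 hold no GC box, and those of Rph3a hold no RE1-like run. Another Sv2b promoter holds a TATA box too, and the remaining Sv2b promoters hold neither box.

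Synaptotagmins are vesicle proteins with paired C2 domains, several of which bind calcium. Of 12 synaptotagmins, 2 were higher past the test and the median difference of the family was -0.03. Syt1, the main calcium sensor for fast transmitter release, had log2 signals of 10.44, 9.83 and 9.90 on day 11, day 12 and day 13 in GFP+ cells, against 8.02, 8.15 and 6.99 in GFP- cells. All 3 GFP+ values lay above all 3 GFP- values, and the gap was widest on day 13. Syt1 averaged 10.06 ± 0.34 in GFP+ cells and 7.72 ± 0.63 in GFP- cells (SD, n = 3 each), a 5.05-fold difference (2.34 on the log2 scale, standard error 0.25, adjusted p from limma = 0.028). This was the highest difference of the 36 genes and ranked 13 among all genes.

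Syt5, a calcium-binding synaptotagmin of vesicles in neurons and endocrine cells, had signals of 8.99, 8.75 and 8.55 in GFP+ cells, against 6.85, 7.11 and 6.77 in GFP- cells. Within each fraction the days lay close together, and the fractions did not overlap. Syt5 averaged 8.76 ± 0.22 in GFP+ cells and 6.91 ± 0.18 in GFP- cells (SD, n = 3 each), a 3.62-fold difference (1.85, standard error 0.16, adjusted p from limma = 0.024), and ranked 39 among all genes. Syt1 and Syt5 also exceeded the difference of every neuronal marker, of which the highest was 1.70 for Dcx, a microtubule protein of migrating neurons. That count is a description, and the differences between genes were not tested.

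The other synaptotagmins did not pass the test. Syt4, which binds calcium poorly and resides on secretory granules, had signals of 6.69, 7.56 and 6.95 in GFP+ cells, against 6.15, 6.38 and 5.98 in GFP- cells (0.90, standard error 0.17, adjusted p from limma = 0.077), with no overlap of the fractions. Syt7, a high-affinity sensor of slow release, was at 0.57 and Syt6 at 0.55, and for both every GFP+ array was above every GFP- array. Syt11, a synaptotagmin that does not bind calcium, had signals of 8.87, 9.19 and 8.94 in GFP+ cells, against 8.82, 9.40 and 8.63 in GFP- cells, and the fractions overlapped (0.05, adjusted p = 0.887). Syt17, a synaptotagmin without a membrane anchor, was the lowest of the 36 genes, with 5.28, 5.13 and 5.25 in GFP+ cells, against 5.97, 5.84 and 5.72 in GFP- cells (-0.63, standard error 0.14, adjusted p = 0.105). Syt9, another sensor of fast release (-0.39), and Syt13, which does not bind calcium (-0.43), also had every GFP+ array below every GFP- array. That pattern was found for 3 of the 36 genes, a share near the 7.85% of all genes. The fractions overlapped for Syt2 (-0.28), Syt3 (-0.12) and Syt12 (-0.38), and Syt12 was at -0.04 without day 13. Of the synaptotagmins, Syt2, a fast calcium sensor of hindbrain and spinal synapses, Syt9 and Syt12 had mean signals under the median of all probe sets, which was 5.43.

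**Figure D2:**
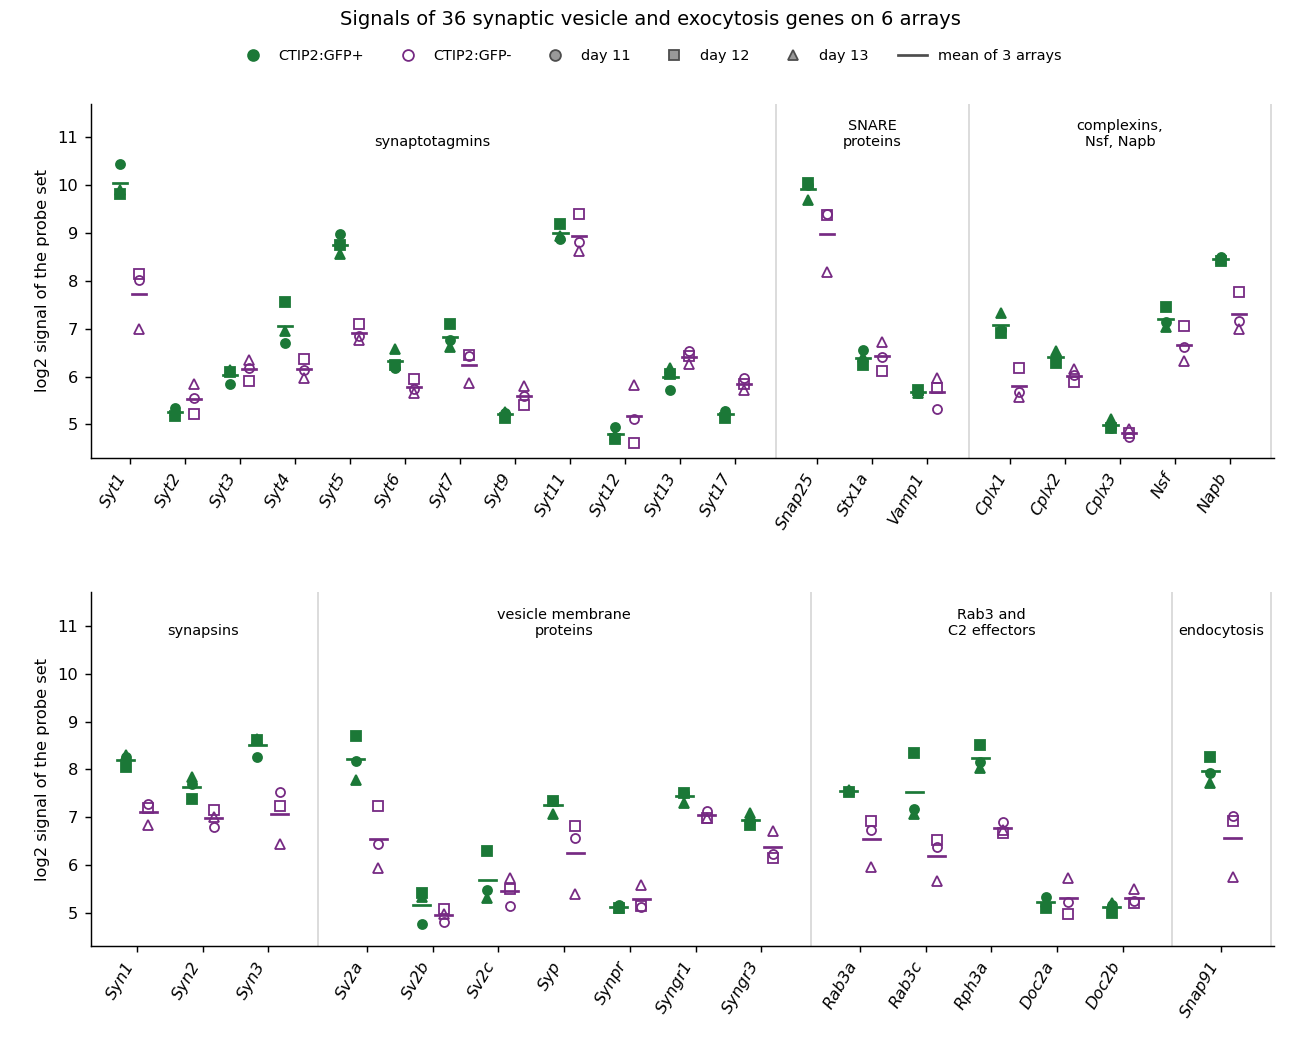
Log2 signals of the 36 measured genes on the 6 arrays, with CTIP2:GFP+ as filled symbols at the left and CTIP2:GFP- as open symbols at the right of each gene. Marker shape gives the day and the bar the mean of 3 arrays. Every GFP+ symbol lies above every GFP- symbol for 21 genes and below for Syt9, Syt13 and Syt17. Heights are not comparable between genes, since probe sets differ in affinity.

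Over all families, every GFP+ array was above every GFP- array for 21 of the 36 genes, against 9.05% of all genes. The standard deviation between days had a median over the 36 genes of 0.17 in GFP+ cells and 0.30 in GFP- cells. The difference itself varied between days with a median standard deviation of 0.32.

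Among the SNARE proteins, Snap25, Stx1a and Vamp1 were measured and none passed the test. Snap25, the neuronal plasma membrane SNARE, had signals of 10.004, 10.05 and 9.70 in GFP+ cells, against 9.40, 9.38 and 8.18 in GFP- cells. The fractions did not overlap, the GFP- value of day 13 lay far below the other GFP- values, and the daily differences were 0.60, 0.67 and 1.52 (mean 0.93, standard error 0.22, adjusted p from limma = 0.115). Stx1a, the syntaxin partner of Snap25, had signals of 6.55, 6.23 and 6.40 in GFP+ cells, against 6.41, 6.13 and 6.73 in GFP- cells (-0.03). Vamp1, a vesicle SNARE prominent in brainstem and spinal cord, was at -0.01, and for both genes the fractions overlapped and the direction changed with the normalization.

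Complexins clamp and then promote SNARE-driven fusion, and NSF with SNAP adaptors recycles the SNAREs. None of the 5 genes of this group passed the test and 2 were over 2-fold higher. All 5 were higher in GFP+ cells on each day, and the fractions overlapped only for Nsf. Cplx1 had signals of 6.98, 6.92 and 7.34 in GFP+ cells, against 5.67, 6.17 and 5.57 in GFP- cells (2.42-fold, 1.27 on the log2 scale, standard error 0.22, adjusted p from limma = 0.062). Cplx2, the other major complexin of forebrain, differed by 0.38, 0.40 and 0.38 on the 3 days, the most even difference of the group, with a mean of 0.39 (adjusted p = 0.245). Cplx3, the complexin of retinal ribbon synapses, was at 0.16 with signals under the median of all probe sets. Napb, the brain-specific beta-SNAP adaptor, had signals of 8.50, 8.43 and 8.46 in GFP+ cells, against 7.17, 7.77 and 7.001 in GFP- cells (2.22-fold, 1.15, standard error 0.20, adjusted p = 0.062). Its GFP+ values were nearly equal on the 3 days while its GFP- values spread widely. Nsf, the ATPase itself, was at 0.54 (adjusted p = 0.152).

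Synapsins coat vesicles and hold them in reserve. All 3 synapsins had every GFP+ array above every GFP- array, 2 were over 2-fold higher, and none passed the test. Syn1 had signals of 8.27, 8.06 and 8.29 in GFP+ cells, against 7.27, 7.20 and 6.84 in GFP- cells. It averaged 8.21 ± 0.13 in GFP+ cells and 7.10 ± 0.23 in GFP- cells (SD, n = 3 each), a 2.15-fold difference (1.10, standard error 0.17) with an adjusted p from limma of 0.051, just over the threshold. Without the block for day its adjusted p was 0.046, within a range of 0.0074 to 0.265 over all alternatives. Syn3, the synapsin expressed earliest in developing neurons, had signals of 8.26, 8.62 and 8.65 in GFP+ cells, against 7.52, 7.24 and 6.45 in GFP- cells (2.71-fold, 1.44, standard error 0.28, adjusted p = 0.083). Its daily differences were 0.74, 1.38 and 2.20, and it was the 1 gene of the 36 with a slope over days at an unadjusted p under 0.05 (0.73 per day, adjusted p from limma = 0.999). Syn2 was at 0.65 (adjusted p = 0.168). No slope over days passed the adjusted test for the 36 genes or for any gene, a background of 0%, with 108 of all genes at an unadjusted p under 0.05.

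The vesicle membrane proteins included 1 called gene of 7. Sv2a, the SV2 isoform found on most brain vesicles and the binding site of levetiracetam, had signals of 8.18, 8.70 and 7.78 in GFP+ cells, against 6.45, 7.23 and 5.95 in GFP- cells. Both fractions were highest on day 12 and lowest on day 13, so that the difference stayed between 1.47 and 1.84. Sv2a averaged 8.22 ± 0.46 in GFP+ cells and 6.54 ± 0.65 in GFP- cells (SD, n = 3 each), a 3.20-fold difference (1.68, standard error 0.15, adjusted p from limma = 0.024). Without the block for day, its adjusted p was 0.114, within a range of 0.00018 to 0.457 over all alternatives. Its relatives did not pass the test. Sv2b was at 0.21 (adjusted p from limma = 0.581), with a mean signal under the median of all probe sets. Sv2c, the isoform of basal ganglia, was at 0.24 with daily values of 0.33, 0.80 and -0.41.

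Syp, the abundant vesicle protein synaptophysin, had signals of 7.34, 7.35 and 7.06 in GFP+ cells, against 6.57, 6.81 and 5.40 in GFP- cells (0.99, standard error 0.24, adjusted p from limma = 0.126). Its fractions did not overlap, and its daily differences of 0.77, 0.53 and 1.66 were largest on day 13. Its relatives Syngr1 and Syngr3, the neuronal synaptogyrins, were at 0.40 and 0.58, also without overlap of the fractions. Synpr, or synaptoporin, was at -0.16 with signals under the median of all probe sets.

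Rab3 GTPases mark vesicles for release, and rabphilin and Doc2 proteins carry C2 domains that bind calcium and phospholipid. Rph3a, or rabphilin, which binds Rab3 on the vesicle, had signals of 8.15, 8.52 and 8.03 in GFP+ cells, against 6.89, 6.68 and 6.73 in GFP- cells. It averaged 8.23 ± 0.25 in GFP+ cells and 6.77 ± 0.11 in GFP- cells (SD, n = 3 each), a 2.76-fold difference (1.46, standard error 0.17, adjusted p from limma = 0.031). Its largest daily difference, 1.84, was on day 12, and its day 13 GFP- value was not apart from the others. After a further quantile normalization its adjusted p was 0.111, within a range of 0.0012 to 0.199 over all alternatives.

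Rab3c had signals of 7.18, 8.35 and 7.07 in GFP+ cells, against 6.38, 6.53 and 5.68 in GFP- cells (2.53-fold, 1.34, standard error 0.22, adjusted p from limma = 0.058), with the highest GFP+ value on day 12. Rab3a, the main Rab3 of brain vesicles, had 7.56, 7.54 and 7.56 in GFP+ cells, against 6.73, 6.93 and 5.96 in GFP- cells (1.01, standard error 0.22, adjusted p = 0.101). Its GFP+ values were nearly equal, and the fractions did not overlap for either Rab3 gene. Doc2a (-0.09) and Doc2b (-0.20), sensors of spontaneous and asynchronous release, had signals under the median of all probe sets. Snap91, which encodes the endocytic adaptor AP180, had signals of 7.93, 8.26 and 7.71 in GFP+ cells, against 7.03, 6.92 and 5.76 in GFP- cells (2.63-fold, 1.40, standard error 0.22, adjusted p = 0.056). Its fractions did not overlap.

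The 36 genes comprised 11 with a mean difference over 2-fold (Syt1, Syt5, Cplx1, Napb, Syn1, Syn3, Sv2a, Rab3a, Rab3c, Rph3a and Snap91), of which 7 had an adjusted p from limma of 0.051 to 0.101, and 25 with smaller differences. All 11 had a mean signal above the median of all probe sets, as had 391 of the 392 genes of all that were over 2-fold higher. Of the 28 genes with a mean signal above the median of all probe sets, 4 were called higher (1.47% of the 10789 genes of all that were as bright) and the median difference was 0.78, against 0.10 for those 10789 genes. The 8 dimmer genes had a median of -0.18, against -0.11 for the 9149 dimmer genes of all. From day 11 to day 13 the daily medians over the 36 genes were 0.42, 0.45 and 0.54, and 28, 28 and 24 of them were higher in GFP+ cells. The 28 brighter of the 36 genes had daily medians of 0.64, 0.65 and 0.94, and the 8 dimmer ones -0.07, 0.03 and -0.49. For the 10789 brighter genes of all they were 0.11, -0.08 and 0.33. The neuronal markers had daily medians of 0.64, 0.82 and 1.52, and all 10 had their lowest GFP- value on day 13.

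**Figure D3:**
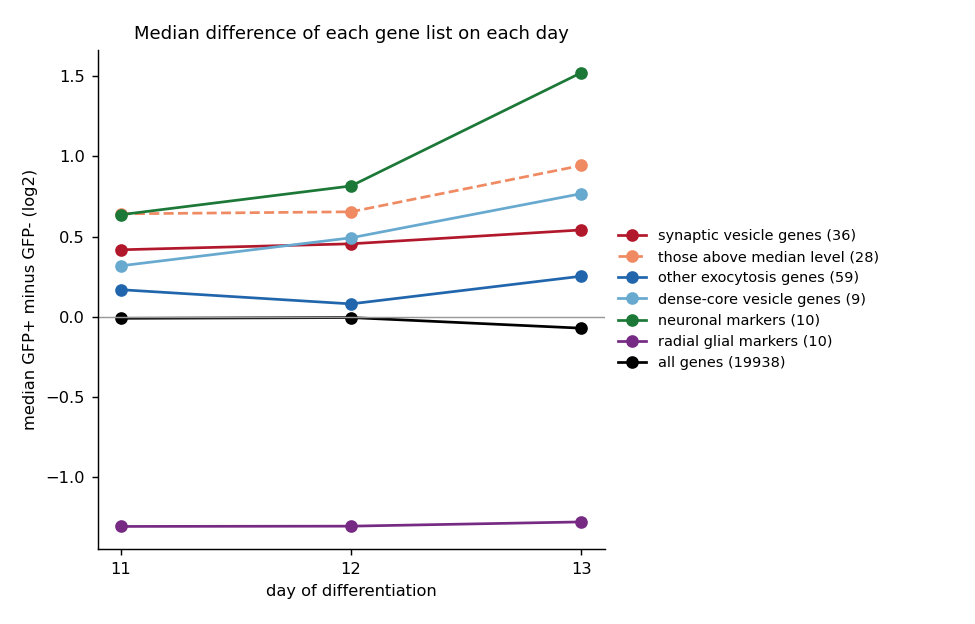
Median difference between the fractions, GFP+ minus GFP- on the log2 scale, of each gene list on day 11, day 12 and day 13, with the number of measured genes in brackets. The 36 genes stay between 0.42 and 0.54, the neuronal markers reach 1.52 on day 13, the radial glial markers lie near -1.3 on each day, and all genes lie near 0.

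The rest of the exocytosis and vesicle recycling machinery was given by a list of 64 other genes, of which 59 were measured. Of these, 4 were called higher in GFP+ cells (0.797% of all genes) and 1 lower (0.567% of all). A further count gave 7 over 2-fold higher (1.97% of all) and 2 over 2-fold lower (1.02% of all). The median difference was 0.13, against -0.05 for all genes. Amph, or amphiphysin, which recruits dynamin to clathrin-coated pits, had signals of 8.49, 7.98 and 8.24 in GFP+ cells, against 6.10, 6.69 and 6.18 in GFP- cells (3.77-fold, adjusted p from limma = 0.033). Dnm3, a neuronal dynamin that cuts vesicles from the membrane, had 7.77, 8.03 and 7.63 in GFP+ cells, against 6.25, 6.30 and 5.37 in GFP- cells (3.57-fold, adjusted p = 0.025). For both endocytosis genes the fractions lay far apart on each day.

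Cadps, a priming factor for dense-core vesicle release, had signals of 7.99, 8.71 and 7.93 in GFP+ cells, against 6.98, 6.94 and 5.78 in GFP- cells (3.12-fold, adjusted p from limma = 0.045). Svop, a vesicle protein related to SV2, was 2.55-fold higher in GFP+ cells (1.35, adjusted p = 0.040). The 1 gene called lower was Snap23, the SNAP-25 relative of non-neuronal secretion, with 8.17, 8.28 and 7.82 in GFP+ cells, against 9.31, 9.81 and 8.93 in GFP- cells (fell by 1.26 on the log2 scale, standard error 0.15, adjusted p = 0.033). Every GFP+ value of Snap23 lay below every GFP- value, while Snap25 had the opposite order on each day. Without the block for day, 2 of the 59 genes were called higher and 0 lower, and without day 13 none was called in either direction.

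Further paralogues were picked after their values were seen. The differences of Snap29 and Snap47, other SNAP-25 relatives, were 0.65 and 1.22 and did not pass the test. Syngr2, the synaptogyrin of non-neuronal cells, was at -1.15 (adjusted p from limma = 0.087), with 6.47, 6.21 and 5.89 in GFP+ cells, against 6.99, 7.59 and 7.47 in GFP- cells. Dnm1, the main dynamin of synapses, was at 0.93 (adjusted p = 0.059) and Dnm2, the dynamin of all cells, at 0.47 (adjusted p = 0.327). The differences between paralogues were not tested.

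**Figure D4:**
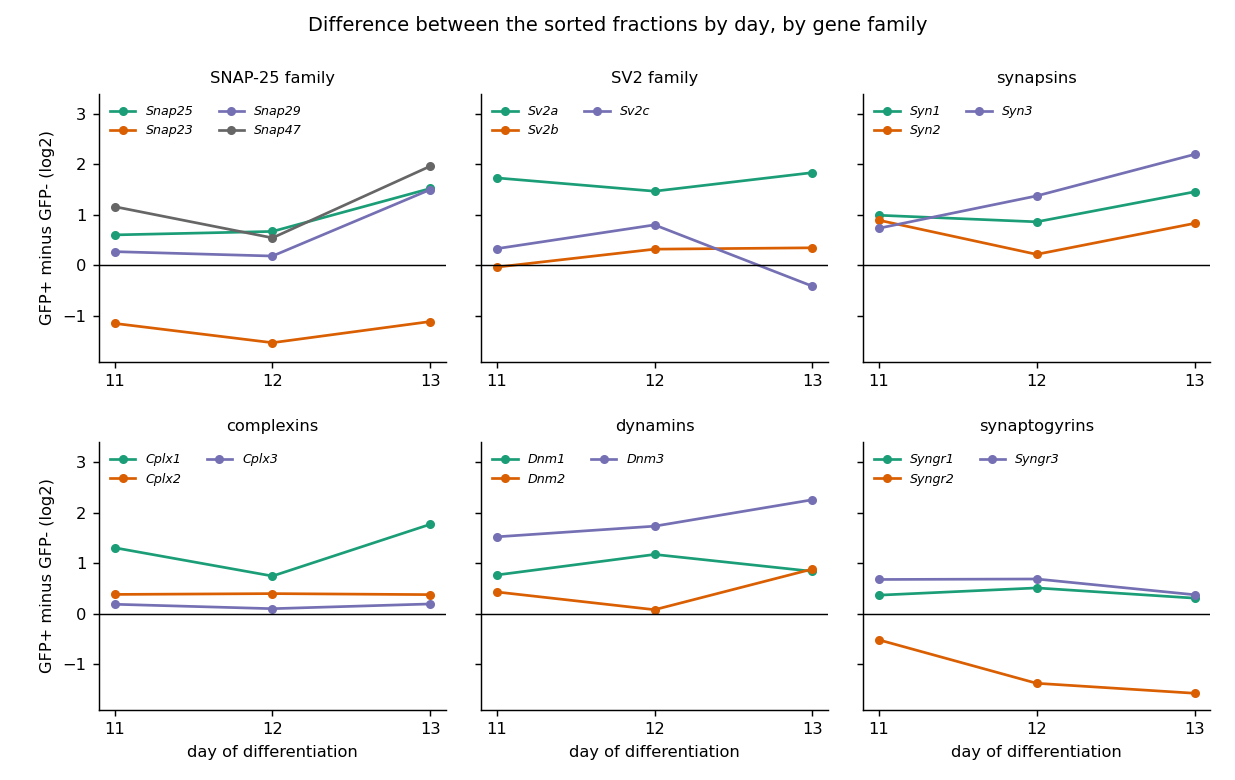
Difference between the fractions, GFP+ minus GFP- on the log2 scale, on day 11, day 12 and day 13 for measured genes of 6 families, 1 array per fraction and day. Snap23 and Syngr2 lie below 0 on each day, Sv2a lies above Sv2b and Sv2c, and Syn3 reaches 2.20 on day 13.

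Dense-core vesicles, which store peptides and chromogranins, were covered by 10 genes, of which 9 were measured. None was called by limma, and 6 were higher at an unadjusted p under 0.05, as were 1910 of all 19938 genes. A difference over 2-fold higher in GFP+ cells was found for 2 (1.97% of all genes), and the median difference was 0.62. Scg3, a granin that binds Chga, had signals of 9.46, 9.34 and 9.36 in GFP+ cells, against 8.74, 8.38 and 7.24 in GFP- cells (1.27, adjusted p from limma = 0.107). Chga, or chromogranin A, was at 1.21 (adjusted p = 0.101). Every GFP+ array was above every GFP- array for 6 of the 9 genes, against 9.05% of all genes. Scg2, another granin, had the lowest difference at 0.01.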

How the data were processed

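RNA of 2 sorted fractions on 3 days was measured on 6 GeneChip arrays. The deposited values are log2 signals that the authors made with the RMA16 method of GeneSpring. A joint normalization of all arrays is not given in the sources used here. Of 28853 probe sets, 21789 carry 1 gene symbol, and each gene was represented by the one with the highest mean signal, which gave 19938 genes. These were tested in R 4.3.3 with limma 3.58.1 (fraction plus day as factors, 2 residual degrees of freedom, eBayes). Adjusted p-values (Benjamini-Hochberg, 19938 genes) under 0.05 were called. No dim probe set was removed. The day pairs the fractions by label, and deviations of same-day arrays correlated at 0.112, 0.558 and 0.368, although the day 11 GFP+ array correlated at 0.297 with the day 13 GFP- array. A 2-fold threshold, as the study applied to these arrays, was counted without a test. The script was tested on simulated data. Members and lists were chosen with earlier results of these data known. All measured members were named, and of the other lists the called genes and the largest rise and fall, besides paralogues said to be picked later. The alternatives were no block, each day or array left out, median centring, quantile normalization and other probe set rules. Filters on dim signals, a trended robust eBayes and Student's t-test were alternatives too. The paper names that t-test for its in vitro and in vivo experiments, and names no test for the arrays. Promoters came from RefSeq (GRCm38.p6).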

Additional observations from a re-analysis of the deposited data

How the results depend on the processing

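The count of 4 vesicle genes called higher ranged between 0 and 14 when a day or an array was left out. It was 10 without day 11, 14 without day 12 and 0 without day 13. The share of all genes called higher moved too, from 0.797% to 1.91%, 4.66% and 0% in these 3 fits. With no replicate block the vesicle gene count was 0 without any 1 of the 3 GFP+ arrays or the day 11 GFP- array. It was 7 without the day 12 or the day 13 GFP- array, where 1.56% and 1.01% of all genes were called higher. The vesicle gene count was also 0 after median centring and 0 with Student's t-test. At an unadjusted p under 0.05 from that t-test there were 18, against 1756 of all genes. The count was 11 and 14 with the filters at the 20th percentile and at the median (2.31% and 6.24% of the genes tested). It was 13 with a trended and robust eBayes (2.75% of all genes). That last fit also called 1 gene lower (Syt17) where the count was 0. With no replicate block for the paired days, 4 were called, of which 3 were shared (Syn1 in place of Sv2a). The 4 other exocytosis genes called higher became 2 with no replicate block and 0 after median centring, after quantile normalization and with Student's t-test. They became 8 and 11 with the filters and 10 with the trended fit, and ranged between 0 and 11 with days or arrays left out. The shares of all genes given above apply to these counts too. The 11 genes over 2-fold higher (392 of all genes) ranged between 7 and 14. They were 7 without the day 13 GFP- array (210 of all genes). They were 14 without day 11 and without the day 12 GFP- array (541 and 881 of all genes). Over all genes, 159 were called higher and 113 lower, against 84 and 41 with no replicate block, 0 and 0 without day 13 or after median centring, 52 and 99 after quantile normalization, and 549 and 510 with the trended fit. Among single vesicle genes, none of the called ones reversed. The uncalled Syt11 was at -0.22 after quantile normalization and between -0.10 and 0.28 with days or arrays left out. Stx1a was at 0.028 after median centring and between -0.18 and 0.12, Vamp1 at 0.0496 and 0.0033 after centring and quantile normalization and between -0.19 and 0.15, Sv2c between -0.058 and 0.57 and Doc2a between -0.25 and 0.12. The causes were not tested. For the 8 genes under the median of all probe sets, signal over background was not measured here.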
